A study of Arabidopsis thaliana with 9 samples.

Results

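Lipid transfer proteins were examined in *Arabidopsis thaliana* Col-0 leaves exposed to eggs of the butterfly *Pieris brassicae* or to an extract of such eggs. Members were the genes whose deposited description contained the words lipid-transfer protein or lipid transfer protein. This rule found 40 of 17605 genes, all of them protein genes on the nuclear chromosomes. Leaves of 5-week-old plants were collected in 3 groups of 3 libraries, and the RNA came from 3 biologically independent experiments. Control plants were left untreated. For oviposition, plants spent 24 h with butterflies, 4 plants with 1 egg batch on 2 leaves then stayed 4 days in a growth chamber, and the eggs were taken off before they hatched. For the egg extract (EE) treatment, 2 drops of 2 µL were applied under each of 2 leaves on 4 plants for 5 days. The control plants therefore received no drop, no butterflies and no handling with forceps, and no effect of these can be told apart from that of the eggs or the extract.

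Plant lipid transfer proteins are small secreted proteins in which conserved disulphide bonds hold a bundle of helices around a tunnel that binds a fatty acid or a phospholipid. They are known from the export of cutin, wax and suberin monomers to the leaf surface and to sealed cell walls, and several of them act in defence. DIR1 and AZI1, and the EARLI1 proteins related to AZI1, take part in systemic acquired resistance, in which an infected leaf primes distant leaves. The glycolipid transfer proteins, which the same description rule catches, are unrelated cytosolic proteins that carry sphingolipids between membranes.

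The values are log2 CPM, read counts scaled to library size and normalized by the authors, and a change is a difference of group means on this log2 scale with its standard error (SE) from limma. A gene was called when its limma p-value was under 0.05 after Benjamini-Hochberg adjustment across the whole table. The reads recovered from the deposited values ranged from 37348236 to 47057692 per library. All 5 leaf mesophyll markers were measured, with sums of 10809 to 115318 CPM per library. Of 5 epidermis markers, 4 were measured, with sums of 286 to 498 CPM in control, 227 to 527 after oviposition and 278 to 319 after EE. All 4 had lower means after both treatments, with median changes of -0.36 and -0.50, and none was called. The 3 phloem markers summed to 212 to 307, 235 to 276 and 255 to 355 CPM in the same groups, none of them called. Of the root markers, 1 of 4 was measured, *NRT2.1*, and no marker of flowers or seeds was among the genes tested. The 4 guard cell markers summed to 452 to 1977 CPM in control, 327 to 411 after oviposition and 202 to 549 after EE. *TGG1*, with a control mean of 9.99 log2 CPM against 3.63 to 4.64 for the others, made up most of each sum. It changed by -1.62 after both treatments and *MYB60* by -1.07 and -1.34 after oviposition and EE. *FAMA* changed by -0.63 and -0.58, but *KAT1* by 0.22 and 0.30. None of the 4 was called, and the part of any marker in the results was not tested. Replicate 2 libraries of the 3 groups deviated together from their group means, with correlations across genes of 0.67 to 0.78 between them. In these bulk libraries, fewer cells of a type and less RNA per cell cannot be told apart.

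After oviposition, 5 of the 40 members were higher than in control leaves and 0 were lower. Among all genes, 1.49% were called higher and 0.00568% lower. The 5 members were *EARLI1*, AT4G12490, AT4G12500, the glycolipid transfer protein gene AT4G39670 and *XYP1*. At an unadjusted p under 0.05, 14 members were higher and 1 was lower, against 6.0% (1057) and 1.68% of all genes. Limma-voom on the recovered reads called 3 members higher and 0 lower, against 0.381% and 0% of all genes. After EE treatment, 6 members were higher and 1 was lower, while 2.73% of all genes were called higher and 0.290% lower. The 6 were *EARLI1*, AT4G12490, AT4G12500, AT4G22470, AT4G39670 and *LTPG5*, and the lower one was *LTPG6*. At an unadjusted p under 0.05, 10 members were higher and 2 lower after EE, against 7.40% and 5.98% of all genes, and limma-voom called 5 higher and 0 lower, against 1.85% and 0.0966%. Both counts use the same control libraries. The median change of the 40 members was 0.28 after oviposition and 0.02 after EE, with medians of -0.02 and -0.04 over all genes.

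**Figure D1:**
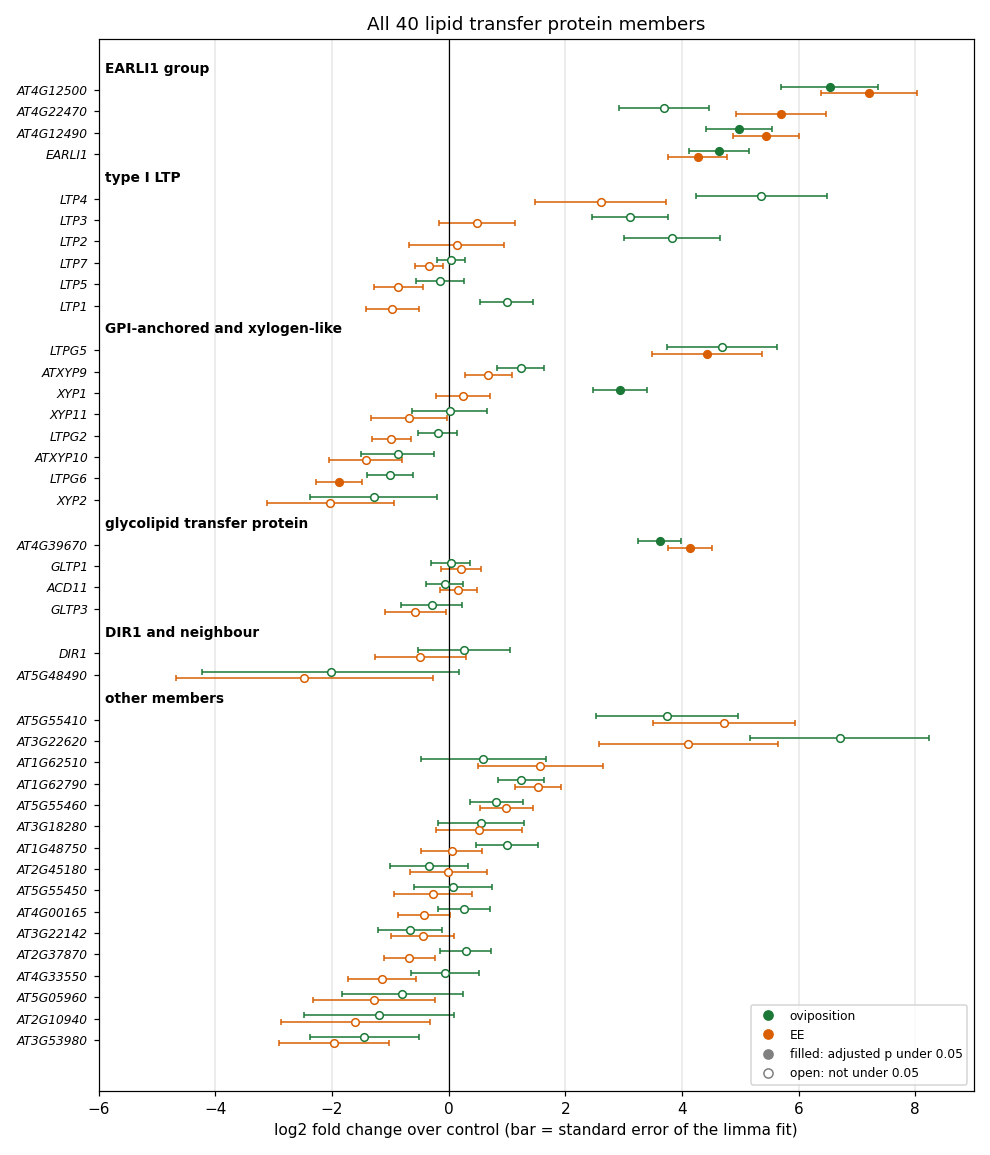
Log2 fold change over control of each of the 40 members after oviposition (green) and EE (orange), grouped by family. Points are limma estimates from 3 libraries per group, bars are standard errors, and filled points have an adjusted p under 0.05. The 4 genes of the EARLI1 group lie between 3.70 and 7.21, and most other members lie near 0 or have wide bars.

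The libraries of 12 members lay entirely above those of control after oviposition and those of 0 members entirely below, against 5.96% and 3.28% of all genes. After EE, 10 members lay entirely above and 4 entirely below, against 9.12% and 9.71% of all genes. The higher share of members after oviposition came from the EARLI1 group, 3 type I lipid transfer proteins, *LTPG5*, *XYP1*, AT4G39670, AT3G22620 and AT5G55410. The 4 members below control after EE were *LTPG6*, *LTPG2*, *ATXYP10* and AT3G53980.

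Of the members called after oviposition, the 3 with the largest changes lie in a tandem cluster on chromosome 4. *EARLI1* (AT4G12480, TAIR10 position 7406105 to 7406937), AT4G12490 (7409621 to 7410406) and AT4G12500 (7414150 to 7414927) lie in a row on the minus strand, with 2.683 kb and 3.743 kb between neighbours. Their annotated transcripts have 1 exon each. *EARLI1* encodes a hybrid proline-rich protein, in which a proline-rich stretch precedes the lipid transfer domain, and was first found as a gene induced by aluminium. As *EARLI1* is the best known gene of the cluster, the 250 bases upstream of it are shown, read from the TAIR10.1 assembly of RefSeq and ending just before the more upstream of the deposited and the RefSeq gene starts. Letters are given 5′ to 3′ on the strand of the gene, and capitals mark TTGAC, the core of the W-box bound by WRKY factors, and TGACG, the core of elements bound by TGA factors, on either strand.

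*EARLI1*, chr4:7406995-7407244, minus strand: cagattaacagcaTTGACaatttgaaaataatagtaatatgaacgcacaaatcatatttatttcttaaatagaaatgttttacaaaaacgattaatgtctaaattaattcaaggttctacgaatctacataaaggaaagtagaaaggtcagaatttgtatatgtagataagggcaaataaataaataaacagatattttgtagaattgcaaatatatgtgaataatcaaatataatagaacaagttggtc

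TTGAC or its reverse complement GTCAA was present once in this window, and TGACG or its reverse complement CGTCA was not found in it. TTGAC was found in the windows of 18 of the 40 members, or 45%, and in 44.9% of 17523 windows of the same length upstream of the nuclear genes in the table. TGACG was found in 4 members, or 10%, and in 19.5% of all windows. The G-box CACGTG was found in 0 members and in 7.47% of all windows. Such matches are descriptions of the letters and not mapped binding sites.

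*EARLI1* had log2 CPM values of 2.37, 2.33 and 0.33 in the control libraries, 6.72, 6.25 and 5.97 after oviposition and 5.97, 6.15 and 5.72 after EE. Every treated library was above every control library. The change was 4.64 (SE 0.51, adjusted p = 0.0041 in limma), a 24.9-fold rise, after oviposition and 4.27 (SE 0.51, adjusted p = 0.00261), a 19.3-fold rise, after EE.

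AT4G12490 had values of 1.51, 1.64 and -0.55 in control, 6.24, 5.39 and 5.91 after oviposition and 6.89, 6.06 and 5.98 after EE. Again no treated library overlapped with control, and control replicate 3 was the lowest of the control libraries for this gene as for *EARLI1*. It rose by 4.98 (SE 0.56, adjusted p = 0.00468 in limma), or 31.5-fold, after oviposition and by 5.44 (SE 0.56, adjusted p = 0.00147), or 43.5-fold, after EE. AT4G12500 was nearly silent in control leaves, where 3, 35 and 2 reads were recovered, against 648, 787 and 519 reads after oviposition and 1410, 2058 and 524 reads after EE. Its log2 CPM values were -3.69, -0.43 and -3.63 in control, 4.13, 4.16 and 3.56 after oviposition and 4.87, 5.28 and 3.72 after EE. It had the largest change of the members called, with 6.53 (SE 0.83, adjusted p = 0.00681 in limma) after oviposition and 7.21 (SE 0.83, adjusted p = 0.00233) after EE, and the size of both changes rests on the few control reads. The oviposition call of AT4G12500 was lost in a model of only these 2 groups (adjusted p = 0.0510 in limma) and with limma-voom (adjusted p = 0.0691). Of the stretches of 31 bases in AT4G12490, 14.6% also occurred in AT4G12500, so part of the reads of one could come from the other, while *EARLI1* shared 1.74% with AT4G12490.

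**Figure D2:**
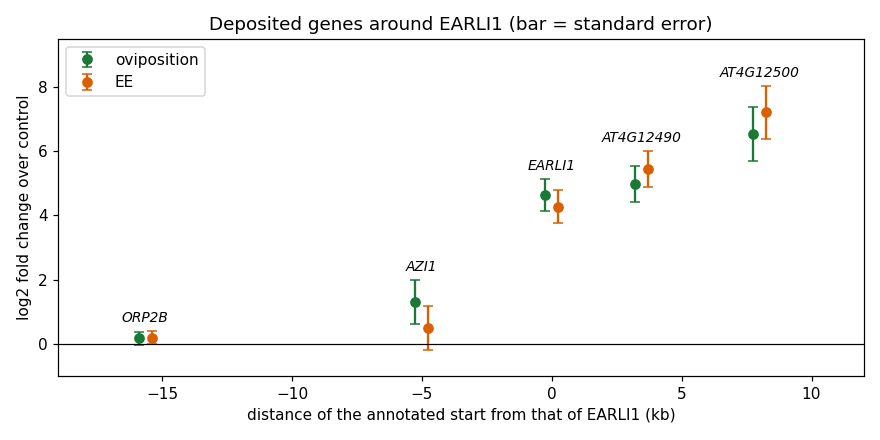
Log2 fold change over control of the deposited genes within 30 kb of *EARLI1*, plotted by the distance of their annotated start from that of *EARLI1* in kb, with oviposition in green and EE in orange (points of a gene are drawn side by side) and standard errors as bars. The 3 members lie between 4.27 and 7.21, *AZI1* and *ORP2B* between 0.17 and 1.29.

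The change was uneven along the cluster. *AZI1* (AT4G12470), required for the priming by azelaic acid in systemic resistance, is the neighbour of *EARLI1* on the same strand but is outside the description rule. Its values were 2.40, 2.54 and 2.43 in control, 4.61, 2.37 and 4.26 after oviposition and 3.49, 1.59 and 3.81 after EE. It changed by 1.29 (SE 0.69, adjusted p = 0.816 in limma) and 0.51 (SE 0.69, adjusted p = 0.832), and its treated libraries overlapped with control, with replicate 2 the lowest of each treated group. The next gene of the table, *ORP2B*, for an oxysterol-binding protein, differed from control by 0.17 (SE 0.21) and 0.19 (SE 0.21) and was not called.

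AT4G22470, another gene described as a lipid transfer family protein on chromosome 4 (11840134 to 11841450), had 1 exon. It had values of 0.82, -2.18 and -1.17 in control, 2.85, 3.13 and 2.60 after oviposition and 5.87, 3.67 and 5.02 after EE. The 3 groups did not overlap, with EE above oviposition and oviposition above control. It was 51.9-fold higher after EE (change 5.70, SE 0.77, adjusted p = 0.00505 in limma). After oviposition the change was 3.70 (SE 0.77, adjusted p = 0.0594), which passed the threshold in 2 of 17 alternatives, such as without control replicate 1 (adjusted p = 0.0191), with adjusted p up to 0.310 in the others. EE exceeded oviposition by 2.00 (95% interval 0.25 to 3.74, adjusted p = 0.999 in limma), so this order of the treatments was not called. The EARLI1 group counted here held only members, the 3 of the cluster and AT4G22470, which lies outside it. These 4 genes had a median change of 4.81 after oviposition, with 3 called higher, and of 5.57 after EE, with 4 called higher. Of all genes, 1.49% were called higher after oviposition and 2.73% after EE. The related *AZI1* was left out of this median, with changes of 1.29 and 0.51, neither called. AT4G12510, AT4G12520, AT4G12530, AT4G12545 and AT4G12550, listed for the same family, were not among the genes tested.

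**Figure D3:**
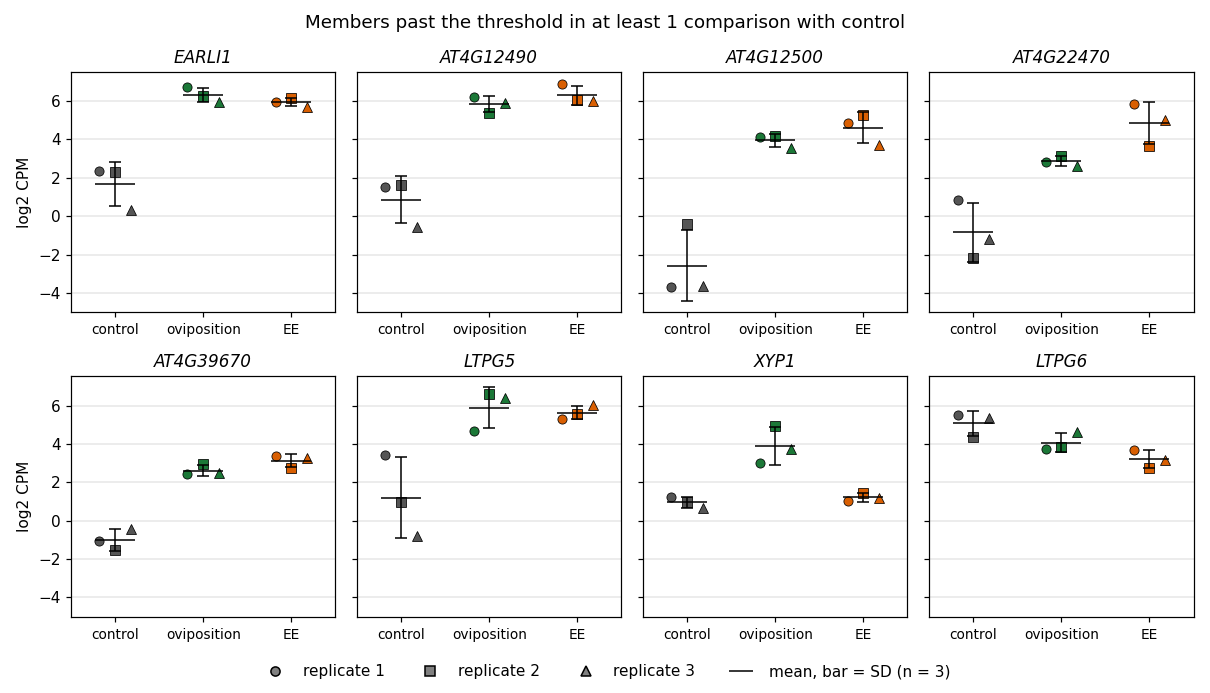
Log2 CPM in each library (symbols mark replicates 1 to 3) of the 8 members called in at least 1 comparison with control, with group mean and SD (n = 3). *XYP1* lies at 3.00 to 4.95 after oviposition and at 0.65 to 1.44 in the other 6 libraries, and *LTPG6* is the one member drawn whose EE libraries lie below control.

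Over all 9 libraries, the genes of the table most like AT4G12500 were *ATGSTU9* (Pearson r = 0.991), AT3G44326 (r = 0.990), AT1G26410 (r = 0.988), *WRKY71* (r = 0.987) and *ATGSTU8* (r = 0.986). *ATGSTU8* and *ATGSTU9* encode glutathione transferases. The 9 points share 3 group means that differ widely, so these values describe the likeness and were not tested.

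Among the glycolipid transfer proteins, AT4G39670 stood alone (chromosome 4, 18410172 to 18411000). Its values were -1.07, -1.53 and -0.42 in control, 2.42, 2.96 and 2.46 after oviposition and 3.39, 2.77 and 3.25 after EE, with all treated libraries above control. It rose by 3.62 (SE 0.37, adjusted p = 0.00324 in limma), or 12.3-fold, after oviposition and by 4.14 (SE 0.37, adjusted p = 0.000851), or 17.6-fold, after EE, the smallest adjusted p of any member. *EARLI1*, AT4G12490 and AT4G39670 kept both of their calls in each of the 17 alternatives tried, and AT4G12500 and AT4G22470 kept that after EE.

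The other members of this fold stayed close to control. *ACD11*, a carrier of ceramide-1-phosphate whose loss causes spontaneous cell death, had values of 5.67, 5.09 and 6.15 in control, 5.90, 5.34 and 5.48 after oviposition and 6.03, 5.36 and 6.03 after EE. The groups overlapped, with changes of -0.06 (95% interval -0.79 to 0.66) and 0.17 (-0.56 to 0.89). *GLTP1* differed by 0.03 (-0.74 to 0.81) and 0.21 (-0.56 to 0.98), and *GLTP3* by -0.29 (-1.48 to 0.90) and -0.57 (-1.76 to 0.62).

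The 6 type I lipid transfer proteins among the members, the classical secreted form with a long lipid tunnel, showed another pattern. *LTP6*, *LTP8*, *LTP9*, *LTP10*, *LTP11* and *LTP12*, listed for the same class, were not among the genes tested. The counts and medians of this class therefore describe only the 6 genes measured. None of these 6 was called in any of the 3 comparisons. At an unadjusted p under 0.05, 3 were higher after oviposition, 1 was higher after EE and 4 were lower after EE than after oviposition, where 6.0%, 7.40% and 1.40% of all genes were. Limma-voom called 0 of them in each comparison. *LTP2*, *LTP3* and *LTP4* had all oviposition libraries above all control libraries. In every one of the 6 genes, all EE libraries lay below all oviposition libraries. Among all 40 members, EE libraries lay entirely below oviposition libraries in 11 and above in 1, against 6.06% and 4.28% of all genes. The median change of the 6 genes was 2.05 after oviposition, -0.10 after EE and -2.29 for EE against oviposition.

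*LTP2* (AT2G38530), which acts in the cuticle of the epidermis, had values of 3.93, 0.47 and 3.55 in control, 6.53, 6.31 and 6.59 after oviposition and 2.79, 1.98 and 3.59 after EE. The oviposition libraries were close together and above all others, while control and EE overlapped. The change after oviposition was 3.83 (SE 0.82, adjusted p = 0.0673 in limma), and it was called without control replicate 2, the lowest library, where it was 2.73 (adjusted p = 0.0221). It was called in 4 of 17 alternatives, with adjusted p up to 0.219. EE was 12.9-fold lower than oviposition (change -3.69, 95% interval -5.55 to -1.83, adjusted p = 0.485 in limma), which was called in 1 of 17 alternatives, without control replicate 2 (adjusted p = 0.0448), with adjusted p up to 0.99996 in the others.

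*LTP3* (AT5G59320) and *LTP4* (AT5G59310), known to respond to abscisic acid, lie head to head on chromosome 5 with 3.118 kb between them. *LTP3* had values of 5.68, 5.34 and 4.79 in control, 6.82, 8.70 and 9.61 after oviposition and 5.60, 5.21 and 6.48 after EE. The oviposition libraries were the highest and spread over a wide range, and EE overlapped with control. Its change after oviposition was 3.10 (SE 0.65, adjusted p = 0.0614 in limma), and 3.88 (adjusted p = 0.0120) without oviposition replicate 1. That was the 1 of 17 alternatives that called it, and over all of them the change was 2.49 to 3.88 and the adjusted p up to 0.328. *LTP4* had values of 3.65, 0.18 and -0.18 in control, 5.43, 5.68 and 8.64 after oviposition and 3.19, 3.65 and 4.63 after EE. Its change after oviposition was 5.36 (SE 1.12, adjusted p = 0.0614), and 6.58 (adjusted p = 0.0199) without control replicate 1, again the 1 of 17 alternatives that called it, with adjusted p up to 0.294 in the others. The changes after EE were 0.49 (SE 0.65, adjusted p = 0.827) and 2.60 (SE 1.12, adjusted p = 0.36). EE was lower than oviposition by 6.11-fold in *LTP3* and 6.77-fold in *LTP4*, neither of them called. As these neighbours had a like pattern, the windows upstream of both are shown with the same marking of capitals.

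*LTP3*, chr5:23928704-23928953, plus strand: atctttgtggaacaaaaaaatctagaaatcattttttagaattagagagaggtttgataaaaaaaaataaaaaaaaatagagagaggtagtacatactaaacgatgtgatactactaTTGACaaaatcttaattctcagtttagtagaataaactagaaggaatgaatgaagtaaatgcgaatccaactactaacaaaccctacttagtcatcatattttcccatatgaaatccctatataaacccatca
*LTP4*, chr5:23925958-23926207, minus strand: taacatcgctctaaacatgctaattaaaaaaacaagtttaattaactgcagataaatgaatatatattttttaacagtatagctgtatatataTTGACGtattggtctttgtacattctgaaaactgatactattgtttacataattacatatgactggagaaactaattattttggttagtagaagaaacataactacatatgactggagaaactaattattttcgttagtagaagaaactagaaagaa

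Each of both windows held TTGAC once, and in *LTP4* it overlapped with TGACG. The longest runs they shared on the strand of each gene had 9 bases. The first of them in *LTP3*, ttagtagaa, was found in 92 of the 17523 windows. The gene bodies of *LTP3* and *LTP4* shared 2.95% and 2.98% of their stretches of 31 bases.

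**Figure D4:**
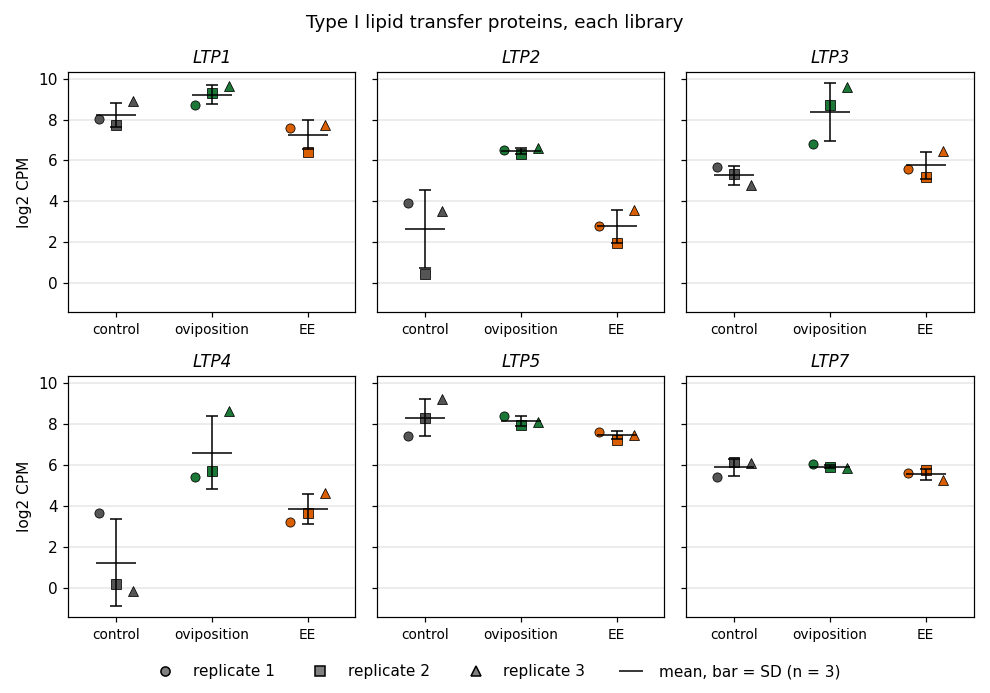
Log2 CPM of the 6 measured type I lipid transfer protein genes in each library (symbols mark replicates 1 to 3), with group mean and SD (n = 3). In each gene the 3 EE libraries lie below the 3 oviposition libraries, and in *LTP2*, *LTP3* and *LTP4* the oviposition libraries also lie above control.

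For the other 3 type I genes, no group lay entirely apart from control. *LTP1* (AT2G38540), which lies 1.191 kb from *LTP2* on chromosome 2, had values of 8.02, 7.74 and 8.91 in control, 8.72, 9.28 and 9.66 after oviposition and 7.57, 6.44 and 7.76 after EE. Its changes from control were 0.99 (95% interval -0.04 to 2.03) after oviposition and -0.97 (-2.00 to 0.06) after EE. Its oviposition libraries overlapped with control and exceeded EE by a difference of 1.96 (95% interval for EE against oviposition -3.00 to -0.93, adjusted p = 0.54 in limma). *LTP5* differed from control by -0.15 (-1.09 to 0.79) after oviposition and -0.86 (-1.80 to 0.08) after EE, and *LTP7* by 0.05 (-0.50 to 0.59) and -0.34 (-0.89 to 0.21).

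The class of proteins anchored to the membrane by glycosylphosphatidylinositol or related to xylogen was set from general knowledge, and other members may also belong to it. Of the 8 genes placed in it, 1 was called higher after oviposition. After EE, 1 was called higher and 1 lower. Among all genes, 1.49% were called higher after oviposition, and 2.73% higher and 0.290% lower after EE. Limma-voom called 0 of the 8 in each comparison. *XYP1* (AT5G64080), for a xylogen protein that acts in the continuity of veins, had values of 1.24, 0.99 and 0.65 in control, 3.00, 4.95 and 3.76 after oviposition and 1.0, 1.44 and 1.18 after EE. Its oviposition libraries were above the other 6, and control and EE overlapped. It rose 7.70-fold after oviposition (change 2.94, SE 0.47, adjusted p = 0.0176 in limma) and differed by 0.25 (95% interval -0.81 to 1.3) after EE. EE against oviposition gave -2.70 (95% interval -3.75 to -1.64, adjusted p = 0.211), so the difference between treatments was not called. The oviposition call was lost without control replicate 3 (adjusted p = 0.0538), without oviposition replicate 3 (0.0723), in a model of only these 2 groups (0.101) and with limma-voom (0.103). Its relative *XYP2* had low values that overlapped between groups, and 23.0% of the stretches of 31 bases in *XYP2* occurred elsewhere in the genome.

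*LTPG5* (AT3G22600) had values of 3.41, 0.99 and -0.79 in control, 4.67, 6.60 and 6.40 after oviposition and 5.32, 5.57 and 6.01 after EE. All treated libraries were above the control libraries, which spread widely. It rose 21.6-fold after EE (change 4.43, SE 0.94, adjusted p = 0.0415 in limma), while after oviposition the change of 4.69 (SE 0.94, adjusted p = 0.0503) just missed the threshold. The EE call held in 4 of 17 alternatives. With the replicate number as a block, it was lost (adjusted p = 0.0584). It was also lost without any single library other than control replicate 1 or oviposition replicate 1 (adjusted p = 0.0598 to 0.170), and without control replicate 1 the oviposition change of 5.79 was called (adjusted p = 0.0113), as in 2 of 17 alternatives, with adjusted p up to 0.356 in the others.

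The gene next to *LTPG5* on chromosome 3, AT3G22620, begins 1.062 kb away on the other strand. Its recovered reads were 64, 31 and 0 in control, 299, 2302 and 1774 after oviposition and 90, 360 and 226 after EE. The groups did not overlap, with oviposition the highest and control the lowest. Its changes were 6.70 (SE 1.53, adjusted p = 0.0858 in limma) and 4.11 (SE 1.53, adjusted p = 0.272), and their size depends on the 0.5 reads added to the library with 0 reads.

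*LTPG6* (AT1G55260) was the one member called lower. It had values of 5.49, 4.34 and 5.38 in control, 3.71, 3.85 and 4.64 after oviposition and 3.68, 2.74 and 3.15 after EE. The EE libraries were below all others, and oviposition overlapped with control. It fell 3.68-fold after EE (change -1.88, SE 0.40, adjusted p = 0.0419 in limma), and the change after oviposition was -1.0 (SE 0.40, adjusted p = 0.53). The EE call was lost without any single library other than control replicate 2 or oviposition replicate 3 (adjusted p = 0.0573 to 0.160), and with limma-voom (0.0620). *LTPG2*, which acts with LTPG1 in the export of cuticular wax, had EE libraries of 3.52, 2.59 and 3.55, below 3.77, 4.32 and 4.53 in control and 3.65, 4.16 and 4.24 after oviposition. Its change after EE was -0.99 (SE 0.33, adjusted p = 0.219) and was not called. Of the remaining genes of this class, *ATXYP9* differed from control by 1.23 and 0.68, *ATXYP10* by -0.87 and -1.42 and *XYP11* by 0.02 and -0.68 after oviposition and EE, none of them called.

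*DIR1* (AT5G48485), the protein thought to move with the systemic signal, had values of 2.08, 1.71 and 3.89 in control, 4.29, 2.47 and 1.71 after oviposition and 2.91, 1.27 and 2.05 after EE. The 3 groups overlapped. The changes were 0.27 (95% interval -1.51 to 2.04) and -0.48 (-2.26 to 1.29). Both intervals span rises and falls, so no change was detected and none of this size is excluded. Its neighbour AT5G48490 had 316, 1 and 277 reads in control, 86, 2 and 10 after oviposition and 24, 3 and 13 after EE. Replicate 2 was the lowest library of each group, and the groups overlapped.

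The remaining 16 members held 0 calls in either direction. At an unadjusted p under 0.05, 3 of them were higher after oviposition and 3 after EE, against 6.0% and 7.40% of all genes, and limma-voom called 0. AT5G55410 had 4, 4 and 0 reads in control, 6, 118 and 35 after oviposition and 23, 111 and 98 after EE. Its treated libraries were above control, and the changes were 3.75 (SE 1.22, adjusted p = 0.319 in limma) and 4.72 (SE 1.22, adjusted p = 0.0933). AT1G62790 changed by 1.53 after EE (SE 0.39, adjusted p = 0.0896), with all EE libraries above control. AT3G53980 gave -1.44 and -1.96 and AT2G10940 -1.19 and -1.60 after oviposition and EE, with standard errors of 0.94 and 1.28. The changes of the other 11 members of this class, leaving aside AT3G22620, lay between -1.28 and 1.57.

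Levels were compared between genes only as CPM per kb of the longest RefSeq transcript. Averaged over the 3 groups, AT2G45180 was the highest member with 609 CPM per kb, followed by *LTP1* with 440, *LTP5* with 280 and *LTP3* with 232. In control leaves, the level of AT2G45180 was 624, that of *LTP1* 382 and that of *LTP5* 366. After oviposition the level of *LTP1* was 742 and that of *LTP3* was 567, above the 536 of AT2G45180, but the libraries of *LTP3* and AT2G45180 spread widely. *EARLI1* and AT4G12490 had 4.10 and 2.82 CPM per kb in control, 87.5 and 75.2 after oviposition and 66.9 and 105 after EE. AT2G45180 itself did not differ detectably, with changes of -0.34 (95% interval -1.84 to 1.17) and -0.01 (-1.51 to 1.5).

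Lists of genes for lipid-linked systemic acquired resistance, for cutin and for suberin were examined beside the members. The first list itself holds the members *DIR1*, *EARLI1* and AT4G12490. Of the 11 genes listed for lipid-linked systemic acquired resistance, 2 were called higher in each comparison with control, and these were the members *EARLI1* and AT4G12490. The shares over all genes were 1.49% after oviposition and 2.73% after EE. At an unadjusted p under 0.05, 3 of the 11 were higher and 0 lower after oviposition, against 6.0% and 1.68% of all genes. After EE 2 were higher and 2 lower, against 7.40% and 5.98%. The median change of this list was 0.27 after oviposition and -0.12 after EE. Of 21 genes listed for cutin and cuticle assembly, 14 were measured and 0 were called, with medians of -0.35 and -0.50. At an unadjusted p under 0.05, 1 of them was lower after oviposition and 3 after EE, against 1.68% and 5.98% of all genes, and limma-voom called 0.

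Of 13 suberin genes, 7 were measured, and their median change was 4.15 after oviposition, 0.87 after EE and -1.91 for EE against oviposition. Genes low in every group may be absent from the table, so this median describes only the genes that passed its filter. *FAR4*, for example, had 4, 9 and 1 reads in control, 16, 167 and 145 after oviposition and 5, 15 and 15 after EE. *GPAT5*, a glycerol-3-phosphate acyltransferase of suberin synthesis, had values of -4.17, -3.76 and -5.99 in control, -0.55, 2.98 and 2.96 after oviposition and 0.43, 0.50 and 1.18 after EE. It was the one gene of the list that was called, with 6.44 after oviposition (adjusted p = 0.018 in limma) and 5.34 after EE (adjusted p = 0.026), and limma-voom did not call it. Only 2, 3 and 0 reads were recovered in the control libraries, so the size of both changes depends on the 0.5 reads added. The shares called higher over all genes were 1.49% after oviposition and 2.73% after EE. *FAR4*, *FAR5* and *ASFT*, for fatty acyl reductases and a feruloyl transferase of suberin, had all oviposition libraries above both other groups. Their changes of 4.15, 4.75 and 4.93 after oviposition were not called (adjusted p = 0.118, 0.130 and 0.132). In *FAR4* the lowest oviposition library (-1.24) was just above the highest EE library (-1.34). Oviposition lay entirely above control in 5.96% of all genes, and EE entirely below oviposition in 6.06%. The changes of *FAR1* (2.51), *KCS2* (0.95) and *KCS20* (-0.12) after oviposition were not called, and these genes overlapped with control. The root marker *NRT2.1* summed to 0.749 to 0.965 CPM in control, 1.63 to 5.35 after oviposition and 1.56 to 4.07 after EE, and its part in these values was not tested.

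Comparing the treatments directly, 0 members were called between EE and oviposition, against 0.0170% of all genes. At an unadjusted p under 0.05, 6 members were lower and 1 was higher after EE, against 1.40% and 1.45% of all genes. Limma-voom called 0 members, against 0.00568% of all genes lower and 0.0227% higher. The median difference was -0.47 over the 40 members and -0.04 over all genes. The largest differences were those of *LTP2*, *LTP4* and *XYP1* on the lower side and AT4G22470 on the higher side, all given above.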

How the data were processed

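RNA was sequenced from leaves in 9 libraries, made from 500 ng RNA with a stranded mRNA kit. The authors mapped reads to TAIR10 with STAR, normalized the counts by the trimmed mean of M-values and per library size, and deposited log2 CPM (read counts scaled to library size). The submitters' processing notes also name cutadapt 1.5, HTSeq, edgeR 3.4.0 and limma 3.2. The filter that left 17605 genes is not given in the sources used here. The authors' own fold changes and adjusted p-values, deposited separately, were not used.

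The deposited log2 values were fitted with limma 3.58.1 in R 4.3.3, with 1 mean per group over all 9 libraries and a mean-variance trend. The Benjamini-Hochberg adjustment ran over 17605 genes, and an adjusted p under 0.05 was called. Intervals are 95% intervals from the same fit. Whole reads were recovered from the log2 values (100% of 158445 values within 0.01 reads of a whole number) and served for read numbers and for limma-voom as an alternative. This recovery needed a factor per library of 0.988 to 1.015 on the log2 scale, and each library had a median of 4.19. The fitted library size over the recovered reads ran from 0.70 (control replicate 3) to 1.20 (EE replicate 2). Changes were taken from the values as deposited. The scripts were tested on simulated data. Sequences, transcript lengths and repeated stretches of 31 bases came from RefSeq TAIR10.1. Of the 40 members, 40 matched a RefSeq locus, and all 17512 nuclear genes held in both annotations overlapped in position. The names *LTPG5*, *LTPG6*, *LTPG2*, *XYP1*, *XYP2*, *LTP1* and *LTP7* are RefSeq symbols or synonyms. RefSeq annotation places the start of a gene, not a measured start site. Plots were made in Python 3.11.15 (matplotlib 3.10.9).

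No source says whether libraries with an equal replicate number share an experiment. Their deviations from group means correlated across genes at 0.34, 0.78 and 0.32 for replicates 1, 2 and 3 of EE and control, at 0.55, 0.76 and 0.53 for EE and oviposition, and at 0.02, 0.67 and -0.16 for oviposition and control. Each r exceeded the limit of 0.1 for EE with both other groups but not for oviposition with control. Libraries of unlike number also correlated, such as EE replicate 1 with control replicate 3 (0.43) and EE replicate 3 with control replicate 1 (0.35). Oviposition replicate 1 and control replicate 3 gave 0.61. This limit therefore cannot show whether equal numbers pair libraries, and the block is an alternative.

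The members, the gene lists and the family classes were chosen with earlier results of these data known. Members are named when called in any comparison, when among the 5 largest changes each way against control or the 3 each way between treatments, when their role is well known, or when among the 3 highest. The others, and the genes beside them, were named after their values were seen, to account for every member. Alternatives were no trend, the replicate block, 1 CPM added, a mean log2 value of at least 0, only the 2 groups compared, quantile normalization, limma-voom, and leaving out each library. Leaving out all replicate 2 libraries was added after the data were seen.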

Additional observations from a re-analysis of the deposited data

How the results depend on the processing

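After oviposition, 5 members were called higher; the count was 8 with 1 CPM added, 3 with only the 2 groups compared, 3 with limma-voom, 7 with the replicate block and 4 to 8 when libraries were left out. It was 8 without control replicate 1. After EE, 7 members were called, and 7 also with 1 CPM added or with quantile normalization. The count was 6 with the replicate block and 5 to 6 when libraries were left out. It was 5 without the mean-variance trend, with the filter on the mean, with only the 2 groups compared and with limma-voom. The single lower call after EE, *LTPG6*, became 0 without the mean-variance trend, with the filter on the mean, with only the 2 groups compared and with limma-voom, and ranged from 0 to 1 when libraries were left out. Between EE and oviposition the count was 0 in the model and 0 to 1 when libraries were left out, the 1 being *LTP2* without control replicate 2. Higher calls alone ranged from 5 to 6 after EE and from 4 to 8 after oviposition, and lower calls after oviposition stayed at 0 in all 17 alternatives.

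With the replicate block, *LTP2* (adjusted p = 0.0235 in limma) and AT4G22470 (0.0235) were called after oviposition. With it *LTPG5* was lost after EE, and no other call of a named member changed. Whether equal numbers pair the libraries is not known. With 1 CPM added, *LTP2* (0.0483), *LTPG5* (0.0407) and AT3G22620 (0.0275) were called after oviposition. Without the replicate 2 libraries, *XYP1* was not called (adjusted p = 0.0994) and *LTP2* was (0.0381).

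The members' median change ranged from 0.13 to 0.72 after oviposition, from -0.26 to 0.14 after EE and from -0.59 to -0.24 between treatments when libraries were left out. After EE it was -0.00145 with 1 CPM added and -0.0173 with quantile normalization, so it has no direction. Of 72 changes of named members, 17 changed sign when libraries were left out, and none of these had been called. Their ranges were -0.34 to 0.19 for *ACD11*, -0.26 to 1.74 for AT1G62510, -0.76 to 0.24 for AT2G45180, -0.47 to 0.93 for *DIR1* and -0.59 to 0.30 for *LTP5* after oviposition. After EE they were -0.11 to 0.42 for *ACD11*, -0.33 to 0.58 for AT2G45180, -0.91 to 0.18 for *DIR1* and -0.95 to 0.78 for *LTP2*. Between treatments they were -0.17 to 1.91 for AT1G62510, -1.22 to 0.80 for AT2G10940, -0.25 to 0.92 for AT2G45180, -1.39 to 0.45 for AT3G53980, -1.67 to 0.97 for AT5G48490, -0.0860 to 1.94 for AT5G55410, -0.87 to 0.13 for *LTPG5* and -1.52 to 0.37 for *XYP2*. Under quantile normalization the EE change was -0.0126 for *LTP2* and 0.22 for AT2G45180, and with limma-voom 0.11 for AT2G45180. The cause of these shifts was not tested.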

Other observations

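*LTPG1*, a partner of LTPG2 in wax export, is outside the description rule. Its values were 5.20, 5.46 and 7.02 in control, 6.51, 5.82 and 6.20 after oviposition and 4.99, 4.18 and 4.85 after EE. The EE libraries lay below all others, as they did for *LTPG2*, and the change after EE was -1.22 (adjusted p = 0.284 in limma), which was not called.

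In 10 of the 40 members (25%) the replicate 2 library was the lowest of its group in all 3 groups, against 16.7% of all genes, and in 2 members (5%) it was the highest in all 3, against 15.3%. AT2G10940 gave 786, 603 and 235 reads in replicate 2 of control, of oviposition and of EE, and 876 to 6903 in the other 6 libraries. AT5G48490 gave 1, 2 and 3 reads there and 10 to 316 elsewhere. *LHCB2.1*, a light-harvesting gene that marks mesophyll, had log2 CPM values of 6.93, 6.16 and 5.70 in the replicate 2 libraries and 9.97 to 11.99 in the others. Of the 5 mesophyll markers it differed most. *RBCS1A* had 11.92, 12.54 and 12.03 in replicate 2 against 12.60 to 14.10 elsewhere, and *RCA* 11.38, 11.27 and 11.29 against 11.79 to 12.91. *LHCA1* had 10.82, 10.45 and 10.28 against 11.71 to 13.99. *LHCB1.3* was alike in control replicates 1 and 2, with 12.21 and 12.22. What set these libraries apart was not tested.

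Among type I genes, *LTP1* lies beside *LTP2* and *LTP3* beside *LTP4*. Among all 40 members, 8 pairs lay within 5 kb of each other, holding 15 members. Of these, AT5G55450 and AT5G55460, which lie 0.423 kb apart, changed by 0.07 and 0.82 after oviposition and by -0.26 and 0.99 after EE, and neither was called.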
